A study of Mus musculus with 6 samples.

Results

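Genes of epithelial cell junctions and the transcription factors of the epithelial to mesenchymal transition (EMT) were examined in RNA-Seq data of mouse embryonic fibroblasts (MEFs). The set held 38 genes of the 25043 genes that the transcript table could be matched to, with 32 epithelial members and 6 EMT factors. Members were taken from a fixed list of gene symbols, and each was represented by its RefSeq transcript with the highest mean. The study had 3 libraries of total RNA from WT MEFs and 3 from Anp32e null MEFs, which lack a chaperone that removes the histone variant H2A.Z from chromatin. Both groups were primary cells from embryos, grown in the same serum medium and used at low passage. The study describes the null cells as lacking Anp32e coding sequence and its cell culture work as done with biological replicates. The embryonic stage and whether the libraries of a group came from separate embryos are not given in the sources used here.

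The value reported for each gene was the authors' mean over the 6 libraries of counts divided by size factors, in normalized counts, referred to as the mean of the gene. It pools both genotypes, so the levels describe these MEFs as 1 population, and no difference between WT and Anp32e null cells is reported. Levels of different genes were compared only after division by transcript length, as normalized counts per kilobase. The pooled mean of Anp32e itself was 2189.9 normalized counts, or 669 per kilobase, and a pooled value cannot check the genotype labels. Total counts per library were not analysed here, so the depth of a library is known only relative to the others. For a low mean, the counts in the single libraries could be worked out, as explained where they are first used.

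Epithelial cells are held together by tight junctions, adherens junctions and desmosomes. Tight junctions seal the space between cells with strands of claudins and of occludin-like proteins, which are tied to actin by scaffold proteins. Desmosomes link the keratin filaments of neighbouring cells through desmosomal cadherins, plakoglobin, plakophilins and desmoplakin. Factors of the ZEB, SNAI and TWIST families repress many of these genes during EMT and are commonly found in fibroblasts, whereas GRHL, OVOL, ELF and ESRP proteins maintain epithelial transcription or splicing.

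SNAI and ZEB proteins bind E-boxes with the letters CAGGTG, which read CACCTG on the other strand. These letters were searched in RefSeq promoter windows on GRCm38.p6, from 250 bases before to 50 bases after each start, which were found for 25 of the 38 members. Among the epithelial members, no window was found for Marveld3, Pkp1, Pkp2, Pkp3, Dsg2, Dsc2, Perp, Esrp1, Esrp2, Ovol1 and Grhl2. The shares of epithelial members thus leave out most desmosome members and most epithelial regulators. At least 1 window held the letters in 13 of 21 epithelial members, or 61.9%, against 6098 of 27025 genes, or 22.6%. By window, it was 16 of 29 for the epithelial members, or 55.2%, against 20.2% of all 32851 windows. Among the EMT factors with a window, Snai1 held it and Zeb2, Twist1 and Twist2 did not, which is 1 of 4. A match describes letters only, and no binding was measured.

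The 250 bases before the start are shown for 5 members, low and high, 5′ to 3′ on the strand of the gene, with each match in capitals. Epcam, on the plus strand at chr17:87635729-87635978, had 2 matches, with first bases 187 and 19 bases before the start. Cldn4, on the minus strand at chr5:134946935-134947184, and Krt5, on the minus strand at chr15:101712906-101713155, had 1 match each before the start. Cldn12, on the minus strand at chr5:5514977-5515226, is shown as a high epithelial member with no match, and Snai1, on the plus strand at chr2:167537945-167538194, as a high EMT factor with 1 match. None of these 5 stretches overlapped an annotated exon.
Epcam: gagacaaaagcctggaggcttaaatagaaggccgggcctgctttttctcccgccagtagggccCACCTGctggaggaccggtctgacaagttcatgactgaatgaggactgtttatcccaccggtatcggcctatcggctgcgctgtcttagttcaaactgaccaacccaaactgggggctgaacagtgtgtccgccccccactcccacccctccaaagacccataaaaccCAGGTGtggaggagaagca
Cldn4: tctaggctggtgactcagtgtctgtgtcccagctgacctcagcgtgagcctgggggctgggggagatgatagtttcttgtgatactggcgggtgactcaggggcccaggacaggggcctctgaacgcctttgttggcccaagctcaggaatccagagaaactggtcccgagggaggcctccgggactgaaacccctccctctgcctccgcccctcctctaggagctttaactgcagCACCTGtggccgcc
Krt5: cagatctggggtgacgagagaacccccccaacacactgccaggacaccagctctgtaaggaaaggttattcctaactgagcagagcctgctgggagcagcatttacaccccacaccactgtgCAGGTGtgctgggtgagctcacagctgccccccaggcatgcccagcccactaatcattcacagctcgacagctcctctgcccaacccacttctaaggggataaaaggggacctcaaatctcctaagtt
Cldn12: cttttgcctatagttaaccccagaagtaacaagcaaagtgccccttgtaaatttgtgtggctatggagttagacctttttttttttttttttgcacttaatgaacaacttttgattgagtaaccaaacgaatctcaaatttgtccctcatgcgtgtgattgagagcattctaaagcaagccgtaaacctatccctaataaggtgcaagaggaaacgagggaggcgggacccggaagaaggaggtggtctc
Snai1: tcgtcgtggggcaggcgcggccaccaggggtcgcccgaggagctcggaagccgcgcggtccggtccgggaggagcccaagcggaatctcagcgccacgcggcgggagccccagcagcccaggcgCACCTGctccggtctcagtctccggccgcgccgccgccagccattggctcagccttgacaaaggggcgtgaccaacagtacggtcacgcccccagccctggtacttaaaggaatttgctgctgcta

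The letters occurred in low and in high epithelial members. They were found in 6 of 9 epithelial members with a mean under 10 normalized counts (66.7%) and in 7 of 12 with a mean of at least 10 (58.3%), against 24.1% and 20.8% of all genes in those ranges. Besides the genes shown above, the members with a match were Cldn3, Cldn6, Cldn7, Ocln, Tjp3, Marveld2, F11r, Dsp, Pkp4 and Elf3. Those with a window and no match were Cldn1, Cldn10, Cldn11, Cldn12, Cldn15, Tjp1, Jup and Krt14.

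The EMT factors were abundant in these MEFs, and most epithelial members were below the median of all genes. The median level was 910.4 normalized counts per kilobase for the 6 EMT factors and 6.43 for the 32 epithelial members, a ratio of 142. For comparison, the median of all 24216 genes with a length was 28.3 normalized counts per kilobase. The EMT median was above 83.3% of these genes and the epithelial median above 42.2%. Means reached 10 normalized counts in all 6 EMT factors. They did so in 18 of the 32 epithelial members, or 56.2%, which is close to the 56.9% of all genes. In bulk RNA, fewer cells that use a gene and less RNA per cell cannot be told apart, so a low mean may stand for either.

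**Figure D1:**
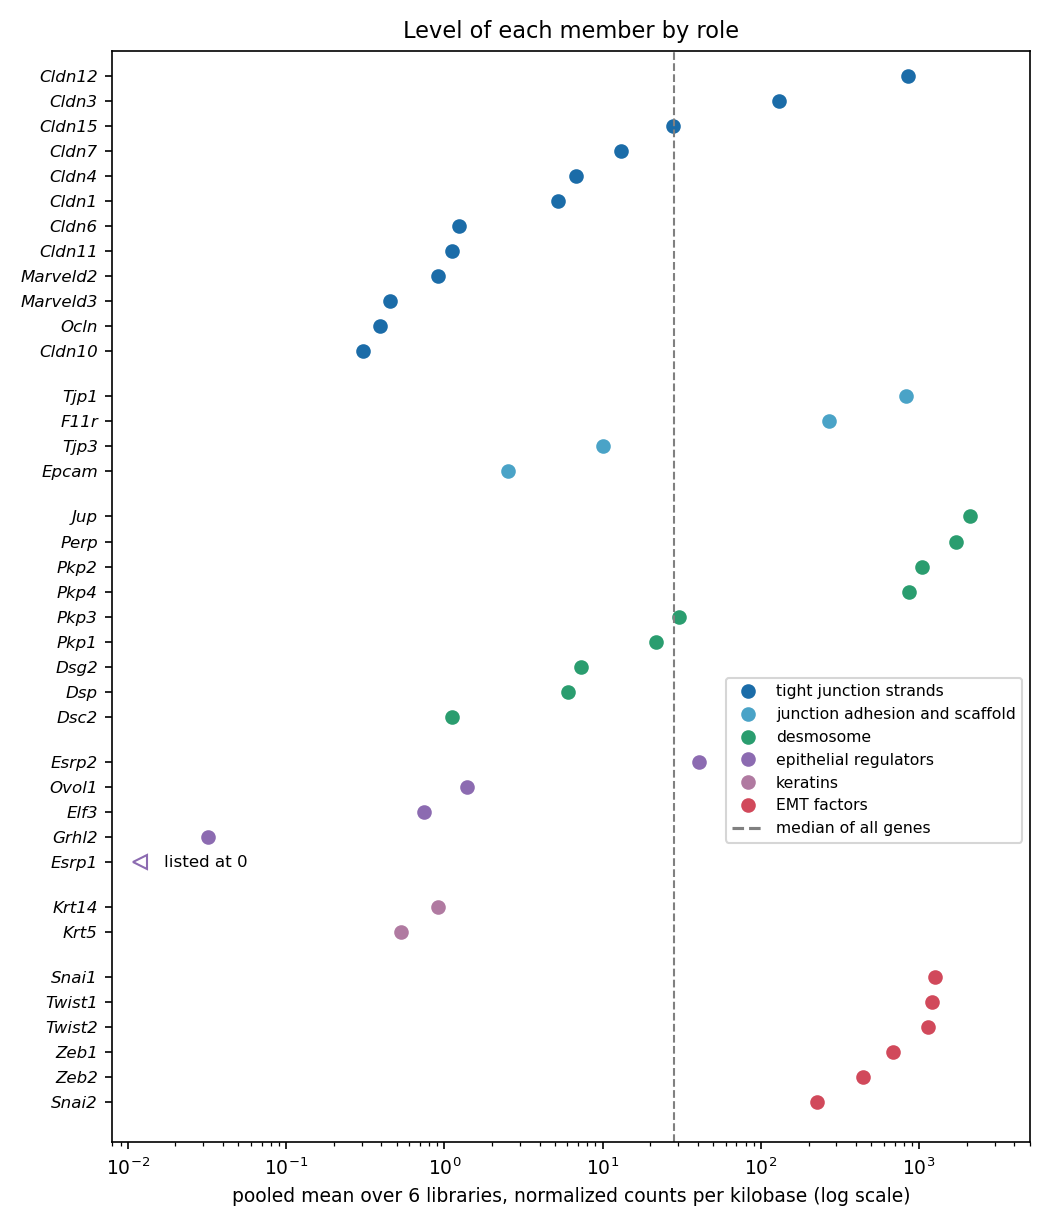
Each point is the authors' pooled mean of a member over the 6 libraries, in normalized counts per kilobase on a log axis, grouped by role. The dashed line is the median of all genes at 28.3, the open triangle marks Esrp1, listed at 0, and the 6 EMT factors lie between 227 and 1262.

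The epithelial members fell over a wide range rather than forming 1 low group. A total of 7 of them, Jup, Perp, Pkp2, Pkp4, Cldn12, Tjp1 and F11r, were above the lowest EMT factor and held 96.1% of the summed level of the epithelial members. The other 25 were below the lowest EMT factor, from 0 to 131 normalized counts per kilobase, with a median of 1.40. Of the 32, 22 were below the median of all genes. Under 1 normalized count per kilobase lay 9 of them, a smaller share than the 33.4% of all genes with a length. The means are pooled over both genotypes and carry no error, so the order of neighbours with similar levels could not be tested.

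**Figure D2:**
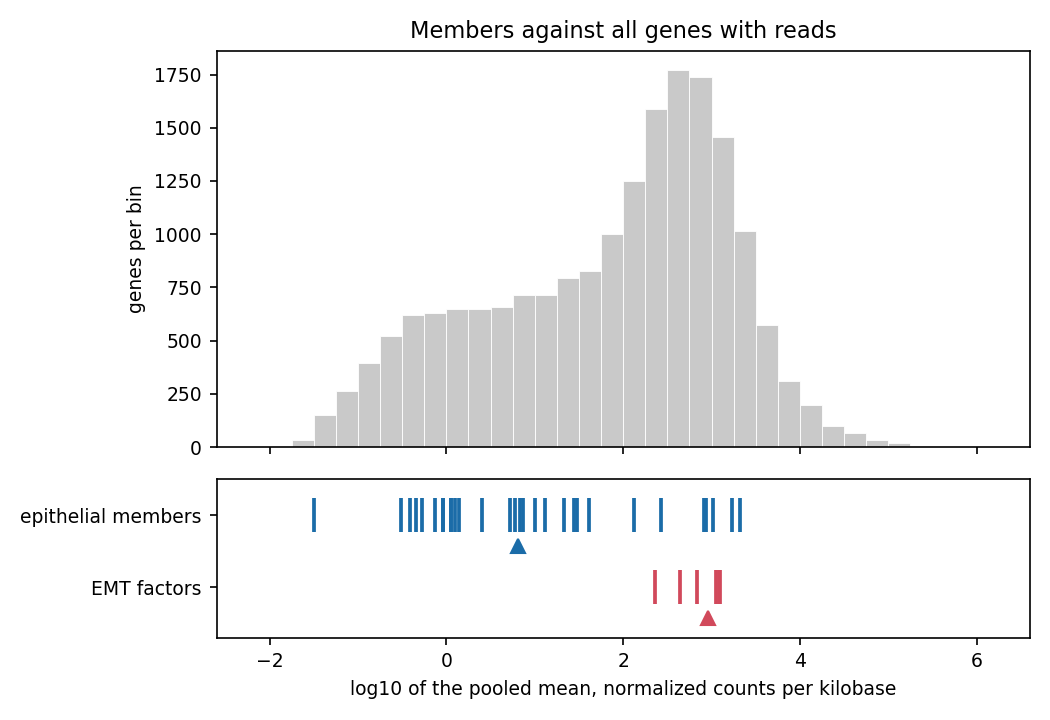
The upper panel is a histogram of the pooled level of all 18746 genes with a length and a mean above 0, as log10 of normalized counts per kilobase, and the lower panel marks each member with a tick and each class median with a triangle. The EMT factors lie within the main peak of all genes, whereas most epithelial members lie in the low shoulder to its left. Esrp1, listed at 0, has no tick but counts in the median.

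Among the strand proteins of tight junctions, Cldn12 stood far above the other members. Its mean was 2968 normalized counts, or 854 per kilobase, which is above 82.5% of all genes. The 4 Cldn12 transcripts had means from 2958.2 to 2968.2 normalized counts, since transcripts of a gene that share exons share their reads. Cldn12 is a claudin without the usual scaffold-binding end that most family members carry.

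Cldn3, which seals tight junctions in many epithelia, followed with a mean of 165 normalized counts, or 131 per kilobase. The per-kilobase level of Cldn12 was 6.50 times that of Cldn3. Exons of Cldn3 share 40 bases with Wbscr25 on the opposite strand. The study used a stranded total RNA library kit, and its methods do not name the strand setting of the counting. Whether reads of the opposite strand were counted is therefore not known, here and for the overlaps given below. Cldn15, which forms cation pores in intestinal epithelium, had a mean of 51.6 normalized counts, or 27.9 per kilobase, close to the median of all genes.

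The other 9 strand proteins had means under 20 normalized counts, and their level was between 0.307 and 13.1 per kilobase. Cldn7, Cldn1 and Cldn4 led these, with levels of 13.1, 5.25 and 6.83 normalized counts per kilobase. Cldn6, a claudin of embryonic epithelia, and Cldn11, known from myelin and Sertoli cells, were at 1.24 and 1.12. Occludin (Ocln), tricellulin (Marveld2) and Marveld3, the other transmembrane proteins of the strands, were at 0.392, 0.917 and 0.451 normalized counts per kilobase. The lowest was Cldn10, a claudin of ion-transporting epithelia, at 0.307.

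For means up to 40.1 normalized counts, the whole counts behind the mean were recovered. Each count in a library adds a fixed step to the mean, set by the size factor of that library. The 6 steps were read from the lowest means in the table and then refined on means under 10 with exactly 1 solution. All 3623 distinct means above 0 and under 10 were explained by exactly 1 set of 6 whole counts. These include the means used for the refinement, so this is no separate check of the steps. The libraries are named A to F by rising size factor, from 0.909 in A to 1.13 in F. No label ties a size factor to a sample, so A to F belong to no known genotype and no groups of them were compared. Counts were given for 17 members, all epithelial. A further member was listed at 0, and the means of the other 20, from 42.3 normalized counts upwards and including every EMT factor, were too high to be resolved.

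Cldn7 and Cldn1 had the highest means of the claudins whose counts were resolved. Its 6 libraries A to F held 15, 17, 25, 18, 19 and 11 counts, or 9.73 to 25.3 normalized counts with a median of 17.8. Cldn1, needed for the barrier of the epidermis, held 13, 4, 26, 17, 16 and 29 counts, or 4.28 to 26.3 normalized counts with a median of 15.9. Both genes were detected in every library, with library B lowest for Cldn1 and library F lowest for Cldn7.

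Cldn4 held 16, 1, 16, 12, 20 and 10 counts in libraries A to F, and its normalized counts went from 1.07 to 19.0 with a median of 13.9. Library B thus stood apart with a single count, while the other 5 libraries held at least 10. Cldn3 and Cldn4, neighbours on chromosome 5, had means of 165 and 12.4 normalized counts, and the counts of Cldn3 could not be resolved per library.

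The lowest strand proteins were not detected in several libraries. Cldn6 had 3 counts in library A, 9 in library D and none in the other 4. Ocln showed the same pair of libraries, with 6 counts in A, 3 in D and none elsewhere. A count of 0 allows up to 3 counts in a library, which is 2.65 to 3.30 normalized counts, and this covers counting error only.

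Marveld2 had 9 counts in library A, 3 in C, 4 in D and none in B, E and F. Its 2 transcripts had means of 2.81 and 0.476 normalized counts. Cldn11 had 8 of its 12 counts in library A, so that library held 69.8% of its normalized counts. Cldn10 had 3 counts in C and 1 in F, and Marveld3 had 7 counts over 4 libraries, at most 3 in any of them. Over the strand proteins with resolved counts, only Cldn1, Cldn4 and Cldn7 were detected in all 6 libraries.

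Several low members had transcripts with different means. Cldn10 had 2 transcripts at 0.654 and 4 at 0.485 normalized counts, a gap equal to the step of 0.169 that 1 count in library C adds to the mean. Ocln had 4 transcripts at 1.59 and 1 at 1.42. Marveld3 had transcripts at 1.10 and 0.907, and Cldn7 at 17.6 and 16.8.

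**Figure D3:**
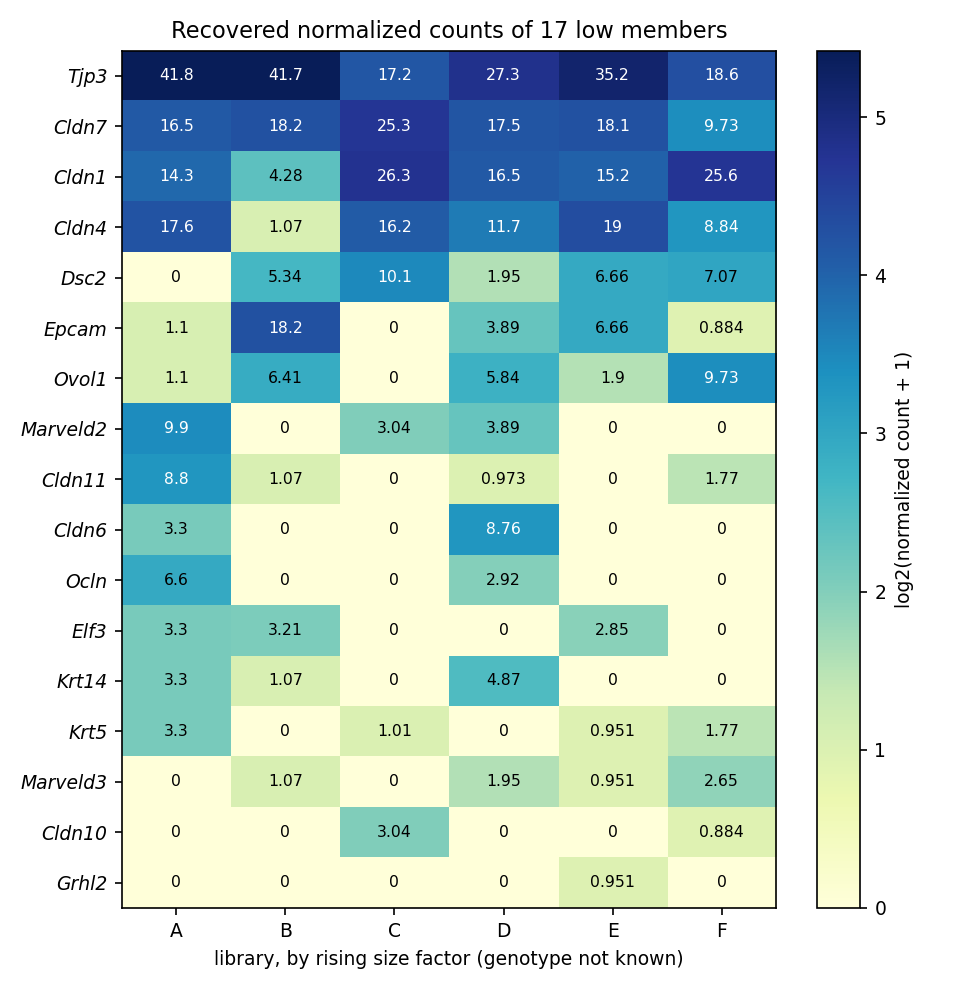
Rows are the 17 members whose counts were recovered, columns the libraries A to F by rising size factor, and each cell prints the normalized count, shaded by log2(normalized count + 1). Tjp3, Cldn7, Cldn1 and Cldn4 have a count in all 6 libraries, whereas the lower rows have many cells at 0.

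Of the adhesion and scaffold members, Tjp1 and F11r were above the median of all genes, and Tjp3 and Epcam were below it. Tjp1, the scaffold ZO-1 that also sits at contacts of fibroblasts, had a mean of 5817 normalized counts, or 825 per kilobase, and its 2 transcripts had means of 5817.5 and 5802.8. F11r, the junctional adhesion molecule JAM-A, had a mean of 683 normalized counts, or 271 per kilobase. Tjp3, the scaffold ZO-3 found mainly in epithelia, was at 10.0 per kilobase, so that the level of Tjp1 was 82.4 times as high.

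Tjp3 held 38, 39, 17, 28, 37 and 21 counts in libraries A to F, or 17.2 to 41.8 normalized counts with a median of 31.2. It was thus detected in all 6 libraries and was lowest in C and F. Exons of Tjp3 share 40 bases with Apba3 on the opposite strand.

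Epcam, the surface adhesion molecule used to mark epithelial cells, had a mean of 5.12 normalized counts, or 2.51 per kilobase, above 37.6% of all genes. Its counts were 1, 17, 0, 4, 7 and 1 in libraries A to F, and the median of its normalized counts was 2.50. Library B held 59.2% of the normalized counts of Epcam, and library C held none. The library that led for Epcam was the one with a single count of Cldn4.

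The desmosome members split into high and low genes. Plakoglobin (Jup), which works in both desmosomes and adherens junctions, had the highest level of all 38 members, with a mean of 6748 normalized counts or 2106 per kilobase. Perp, a tetraspan protein of desmosomes and a p53 target, followed at 1703 per kilobase. Their levels were 1.67 and 1.35 times that of Snai1, the highest EMT factor.

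The plakophilins, armadillo proteins of the desmosomal plaque, differed among themselves. Pkp2, the widely expressed member known from heart desmosomes, was at 1039 normalized counts per kilobase, and Pkp4, which is also found at adherens junctions, at 864. The 12 transcripts of Pkp4 had means from 3936.8 to 3984.3 normalized counts. Pkp3 and Pkp1, found mainly in epithelia, were at 30.3 and 21.7 per kilobase, so that Pkp2 was 34.2 and 47.8 times as high. Each of these pairs of levels refers to the pooled mean.

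The desmosomal cadherins and desmoplakin were low beside plakoglobin. Desmoplakin (Dsp), which anchors keratin filaments, had a mean of 57.8 normalized counts, or 6.03 per kilobase, and the level of Jup was 349 times as high. Exons of Dsp share 499 bases with Gm10129 on the opposite strand. Dsg2 had a mean of 42.3 normalized counts, or 7.33 per kilobase, and shares 330 bases with Gm16090 on the opposite strand. Dsc2, the other broadly expressed desmosomal cadherin, was at 1.12 per kilobase.

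The counts of Dsc2 in libraries A to F were 0, 5, 10, 2, 7 and 8, or a median of 6.0 normalized counts. It was not detected in library A and was highest in C. All 3 of its transcripts had the same mean of 5.19 normalized counts.

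The epithelial regulators were low except for Esrp2. The splicing regulator Esrp2 had a mean of 145 normalized counts, or 40.9 per kilobase, above 52.0% of all genes. Its exons share 219 bases with Nfatc3 and 119 with 1810019D21Rik, both on the opposite strand. Its relative Esrp1 was listed at 0, with all 3 transcripts at 0, as were 22.6% of all genes with a length.

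The transcription factor Ovol1 had a mean of 4.16 normalized counts, or 1.40 per kilobase. It held 1, 6, 0, 6, 2 and 11 counts in libraries A to F and was highest in F. The ETS factor Elf3 had 3 counts in each of libraries A, B and E and none in the other 3, at 0.745 per kilobase. Grhl2, a factor that maintains epithelial junction genes, was found with 1 count in 1 library, E, which gave a level of 0.0320 per kilobase. Ovol1 shares 690 exon bases with Gm31166 and 76 with AC126029.1, Grhl2 shares 169 with Gm16136 and Elf3 shares 162 with Gm26642, all on the opposite strand.

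Krt5 and Krt14, the keratin pair of basal epithelial cells, were at 0.534 and 0.907 normalized counts per kilobase. The 7 counts of Krt5 were 3 in A, 1 in C, 1 in E and 2 in F. The 9 counts of Krt14 were 3 in A, 1 in B and 5 in D. Neither keratin was detected in more than 4 of the 6 libraries. Keratin genes are alike in sequence, so some reads may match more than 1 of them, and how such reads were counted is not given. Krt5 also shares 129 exon bases with Gm44323 on the opposite strand.

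The 6 EMT factors lay within a narrower range of levels than the epithelial members. Snai1, Twist1 and Twist2 were at 1262, 1203 and 1133 normalized counts per kilobase, with means of 2045, 1958 and 1506 normalized counts. Snai1 is a zinc finger repressor, and the TWIST proteins are basic helix-loop-helix factors of mesoderm and neural crest. The highest EMT factor, Snai1, was 5.55 times the lowest, Snai2, which had a mean of 459 normalized counts, or 227 per kilobase.

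Zeb1 and Zeb2, zinc finger and homeodomain repressors of epithelial genes, were at 687 and 445 normalized counts per kilobase, with lengths taken from another transcript of the same gene. The 3 transcripts of Zeb1 had means from 3967.4 to 3987.3 normalized counts. Zeb2 had 6 coding transcripts with means from 2440.3 to 2500.2 and a noncoding one at 107, which is 4.27% of the highest. Zeb2 shares 352 exon bases with its antisense gene Zeb2os, and Twist2 shares 689 with Gm29100 on the opposite strand. If reads were counted without strand, those from a gene and its antisense partner cannot be told apart.

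Other genes of the same pathways, from lists fixed by hand, set the members in context. Among 13 other claudins, 6 were listed at 0 and 1, Cldn22, had a mean above 10 normalized counts. The highest of them were Cldn22 at 15, Cldn20 at 4.20 and Cldn9 at 2.41 normalized counts per kilobase. The 11 matched genes of another tight junction list, which also held the member F11r, had a median of 271 per kilobase, the value of F11r itself. Cgnl1 and Jam3 in that list were at 678 and 555. Most genes of that list were thus above the median of all genes, and all 13 other claudins were below it.

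Among 7 other desmosome genes, 3 were listed at 0, and the plakins Ppl and Evpl, at 43.4 and 5.70 normalized counts per kilobase, were the highest. Dsc3 came next at 0.128. The catenins of adherens junctions, which serve fibroblast contacts too, were much higher, with Ctnna1 at 10094, Ctnnb1 at 8280.3 and Ctnnd1 at 1686 normalized counts per kilobase. In the same list, E-cadherin (Cdh1) was at 15.1 and N-cadherin (Cdh2) at 1597.

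Of 7 other epithelial regulators, Klf5 was at 266, Grhl1 at 12.4 and Grhl3 at 7.94 normalized counts per kilobase, and the list had a median of 0.811. The other EMT-linked factors had a median of 771 per kilobase and were led by Id1 at 12333, Tcf3 at 2615 and Prrx1 at 983. Their lowest, Snai3, was at 4.18.

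Most markers of the labelled cell type, fibroblasts, were high in these libraries. The 12 fibroblast markers had a median of 2079 normalized counts per kilobase and were led by S100a4 at 174859.7, Vim at 150796 and Fn1 at 10396. Lum was lowest at 0.544, and Dcn at 81.8 and Pdgfra at 91.9 were above only 56.7% and 57.6% of all genes. The mesothelial list had a median of 174 and the list of epithelial markers outside the members 27.6. Both were led by the simple keratins Krt19 at 4696 and Krt18 at 769, which stand in both lists. Next were Upk1b at 485 in the first and Cdh3 at 355 in the second. The simple keratin Krt8, also in both lists, was low at 13.6, above 46.0% of all genes, and was the lowest of the mesothelial list.

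Markers of other cell types were lower, with a few exceptions. The endothelial list had a median of 1.30 normalized counts per kilobase, with Kdr at 499, Tek at 7.40 and Pecam1 at 1.30, and Emcn was listed at 0. The macrophage list had a median of 5.48, with Cd68 at 209, Csf1r at 10.4 and Ptprc at 0.609. The skeletal muscle list had a median of 0.261, with Des at 19.7, Myog at 0.394 and Myh3 at 0.127, and Myod1 was listed at 0. The part of other cells in the levels of the members was not tested.

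**Figure D4:**
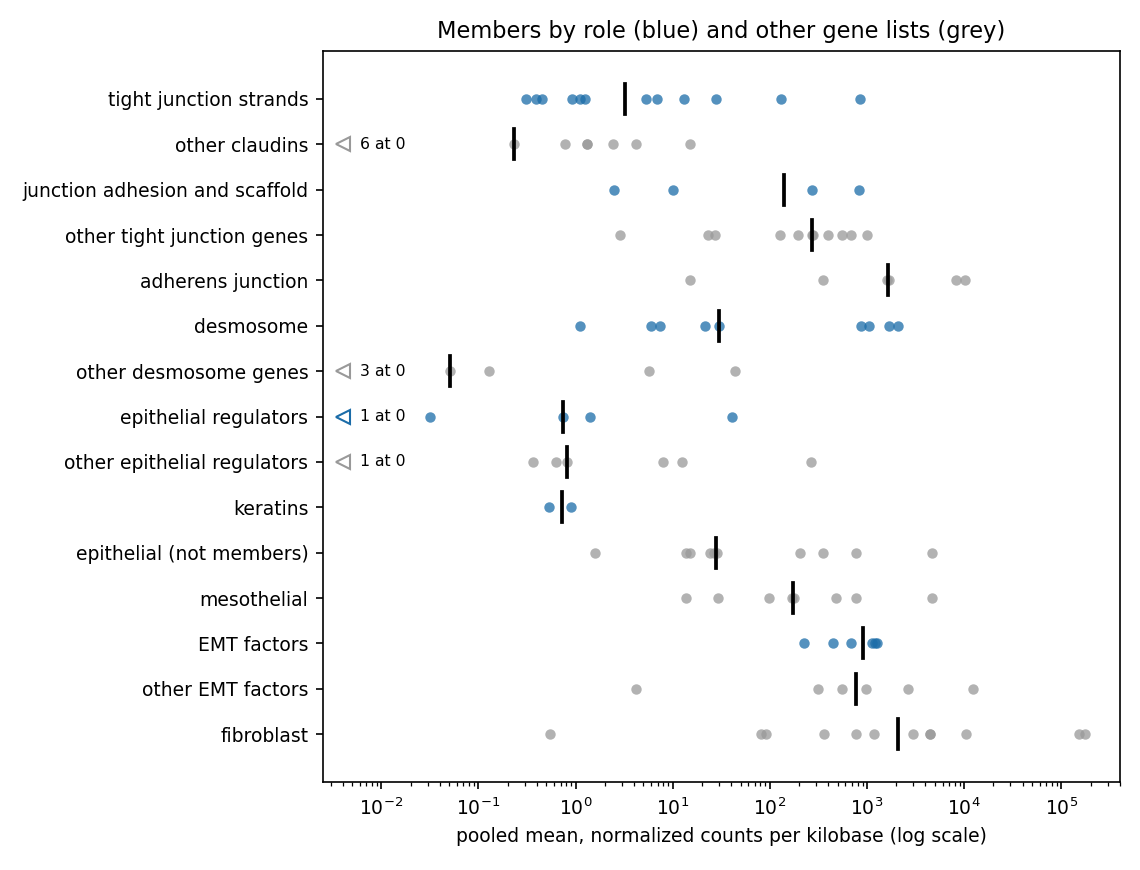
Points are the pooled levels of single genes in normalized counts per kilobase on a log axis, with the members by role in blue, other lists in grey, and a black bar at each median. Open triangles count genes listed at 0, as for 6 of the other claudins. The medians of the EMT factors, at 910.4, and of the adherens junction list, at 1642, lie far to the right of those of the claudins and epithelial regulators.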

How the data were processed

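RNA-Seq of 3 WT and 3 Anp32e null MEF libraries was available as 1 deposited table with a line for each of 42361 RefSeq transcripts. Per the study's methods, the authors aligned paired-end reads to mm10 with STAR, counted them with featureCounts from Subread and ran DESeq2, both with default settings. The library kit was stranded, and the strand setting of the counting is not named. Of 7473 genes with 2 or more transcripts with reads, 2962 had 2 transcripts of identical mean. Shared reads were thus counted for more than 1 transcript. The deposited signal column is the authors' mean over all 6 libraries of counts divided by DESeq2 size factors. The other 5 value columns hold the authors' comparison of the 2 groups (log2 fold change, its standard error, Wald statistic, p-value and adjusted p-value) and were not used. The table has 0 columns of values per sample, so the planned count test was not run, and no replicate SD, test or comparison of genotypes is given.

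Transcripts were matched to symbols with RefSeq (42203 matched, 158 not). Lengths and gene overlaps came from GENCODE M21 on GRCm38, with the length of the represented transcript itself for 34 members and of another transcript of the gene for 4 (Ocln, Pkp4, Zeb1 and Zeb2). Levels are means divided by length in kilobases.

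Whole counts per library were recovered from the means alone, where exactly 1 set of 6 counts matched the mean to its printed digits and under 0.01 sets were expected by chance. The step was tested on simulated data. Python 3.11.15, numpy 2.4.6 and pandas 2.3.3 were used. All members were named, and of each other list the 3 genes with the highest level, except 1 gene that is not reported here. Members and lists were chosen with earlier results of these data known. Alternatives were other transcripts, no length division, fewer members, other floors and a wider tolerance.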

Additional observations from a re-analysis of the deposited data

How the results depend on the processing

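The ratio of the EMT median to the epithelial median, 142, was 141 with the longest transcript of each gene and 141 with the lowest mRNA transcript, 116 without division by length and 129 without Krt5 and Krt14. It was 138 without the 11 members whose exons overlap another gene, an alternative added after seeing the data. The epithelial median was 17.3 normalized counts without division by length, and 7.08 and 6.83 per kilobase without the keratins and without the overlapping members. The EMT median was 2002 normalized counts without division by length, 909 per kilobase with the longest or the lowest mRNA transcript, and 945 without the overlapping members. A floor of 1 normalized count left 29 of the 32 epithelial members, against 18 at a floor of 10, while floors of 3 and 50 left 21 and 13. All 6 EMT factors passed each of these floors. The recovered counts of the 17 members were the same with a tolerance 10 times as wide.

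No paired analysis was possible because the column used pools all 6 libraries and carries no replicate number. Leaving out each replicate in turn and the count test were not run for the same reason. Counts in the libraries A to F are given only for means up to 40.1 normalized counts, and their total depth is unknown.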

Other observations

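Among genes outside the members, several low junction and lineage genes were also found mostly in 1 or 2 of the libraries A to F, which the labels put in no group. Cldn9, a neighbour of Cldn6, had 1, 5, 0, 13, 0 and 2 counts in libraries A to F, so that library D was highest for both genes. The basal factor Trp63 had 0, 1, 15, 0, 2 and 9 counts, with most in C and F. The polarity gene Crb3 had 0, 2, 9, 2, 5 and 3 counts. Myog, a muscle regulator, had 4 counts in library F and none in the others.

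Other low genes were spread more evenly, and some of these had few counts too. Cldn20 had 1, 2, 3, 4, 4 and 3 counts in libraries A to F, and Snai3 had 5, 10, 7, 6, 3 and 10. Those given next had more counts, with totals of 134 for Grhl3, 91 for Cldn22 and 158 for Krt8. The genes named here and above are examples, and evenness was not compared at equal numbers of counts. The regulator Grhl3 had 23, 25, 12, 14, 31 and 29 counts in libraries A to F, and Cldn22 had 8, 10, 23, 12, 23 and 15. The simple keratin Krt8 had 21, 38, 33, 30, 26 and 10 counts, and its normalized counts went from 8.84 to 40.6.

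Summed over the 17 members with resolved counts, the libraries A to F held 119, 95, 101, 111, 114 and 99 counts, or 131, 102, 102, 108, 108 and 87.5 normalized counts. Tjp3, Cldn7, Cldn1 and Cldn4 made up most of each sum. Of the 17 members, 8 had over 50% of their normalized counts in 1 library. Their totals went from 1 count for Grhl2 and 4 for Cldn10 to 30 for Epcam. The 1 count of Grhl2 can only fall in 1 library. Whether counting error gives the shares of the others was not tested. The highest library was A for 6 members, C for 4, D, E and F for 2 each, and B for 1. Neither tally was set against all genes of similar mean, so they are not read as a trait of the members.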
